A study of Mus musculus with 12 samples.

Results

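The nuclear genes of oxidative phosphorylation were followed through 12 RNA-seq libraries of mouse prostate organoids. Members were the gene names that begin with the subunit stems Ndufa, Ndufb, Ndufc, Ndufs or Ndufv, with Uqcr, with Cox4 to Cox8 or with Atp5, together with Sdha to Sdhd. The pattern matched 86 of the 43243 names, 3 of them pseudogenes (Atp5l-ps1, Atp5l-ps2 and Atp5l2-ps) that were left out. The 83 members comprised 36 names of complex I, 4 of complex II, 8 of complex III, 18 of complex IV and 17 of complex V. Membership was decided by name alone, though the names to match were chosen with earlier results of these data known. A gene was tested where its RPKM (reads per length of transcript and per total reads of the library) was at least 1 in at least 6 libraries, which 76 members passed. The 7 that did not were all of complex IV: Cox4i2, Cox6a2, Cox6b2, Cox7a1, Cox7b2, Cox8b and Cox8c.

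Oxidative phosphorylation is carried out in the inner mitochondrial membrane. Complex I oxidises NADH and complex II oxidises succinate, complex III passes the electrons to cytochrome c, complex IV hands them to oxygen, and complex V, the ATP synthase, uses the proton gradient built by complexes I, III and IV. Most subunits are encoded in the nucleus and imported, while a small core set is encoded by mitochondrial DNA. Names follow the older symbols of the files, and a few depart from the complex they carry in their name: Ndufa4 is now known as a subunit of complex IV, Cox7a2l helps complexes join into supercomplexes, and Atp5s and Atp5sl are not structural subunits of the ATP synthase.

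SPOP is the substrate receptor of a cullin-type ubiquitin ligase, and the series compares organoids with mutant SPOP (SPOPmut, 6 libraries) with controls (SPOPwt, 6 libraries), numbered as pairs S0 to S5. Per the labels' protocols, digested mouse prostate was grown in Matrigel with 5 to 50 ng/ml EGF, and CreERT2, a Cre recombinase that needs an estrogen receptor ligand, was switched on overnight with 1 µM 4-hydroxytamoxifen. CreERT2 came either from a virus followed by puromycin selection (A) or from a TMPRSS2-CreERT2 transgene (B); 5 pairs are of model A and 1 of model B, and no library is labelled by model. SPOPmut cells were sorted for GFP and control cells were sham sorted, so mutant SPOP and the kind of sort cannot be told apart. The protocols also describe a non-inducible line, PbCre;R26F133V with PbCre negative controls, to which no library is assigned; the sources used here give neither strain nor age of the mice. Nothing states that the pairs were separate cultures or animals, so p-values measure the spread between these samples, which may be technical.

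Pair S5 stood apart from the other 10 libraries in both genotypes. Although all samples are labelled prostate organoid, 8 epithelial markers had a mean log2(RPKM + 1) of 1.16 to 2.25 across S0 to S4 and 7.83 to 8.01 in S5. Of the basal keratins, Krt5 reached at most 0.24 RPKM and Krt14 at most 0.20 across S0 to S4. Other keratins of the list were present there, though below both S5 libraries: Krt18 at 6.35 to 89.6, Krt19 at 7.06 to 72.2 and Krt8 at 1.44 to 21.5 RPKM. The 13 fibroblast and smooth muscle markers averaged 4.27 to 6.03 across S0 to S4 and 0.24 to 0.34 in S5, and 6 proliferation genes 2.57 to 5.61 and 1.41 to 2.22. The smooth muscle genes Myh11 (at most 0.057 RPKM) and Des (at most 0.27) were near 0 across S0 to S4 too. Immune markers (0.33 to 0.51 and 0.47 to 0.48) and endothelial markers (0.31 to 0.77 and 0.28 to 0.30) were low in both, with Ptprc and Cd3e at or near 0. Approximate depth, from the spacing of low values, was 56540000 to 81960000 single reads per library, so that 1 RPKM in a 2 kb transcript stood for about 113 to 164 reads.

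The members took 0.893 to 1.05% of the summed RPKM of a library, with a median of 0.987%. In S5 the share was 0.975% (SPOPmut) and 0.988% (SPOPwt), inside the range of the other 10. Complex I took 0.331 to 0.385%, complex IV 0.243 to 0.301%, complex V 0.179 to 0.240%, complex III 0.0871 to 0.104% and complex II 0.0310 to 0.0483%. Complex II was the one whose summed RPKM did not overlap, at 135 to 166 across S0 to S4 and at 98.9 and 113 in S5.

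**Figure D1:**
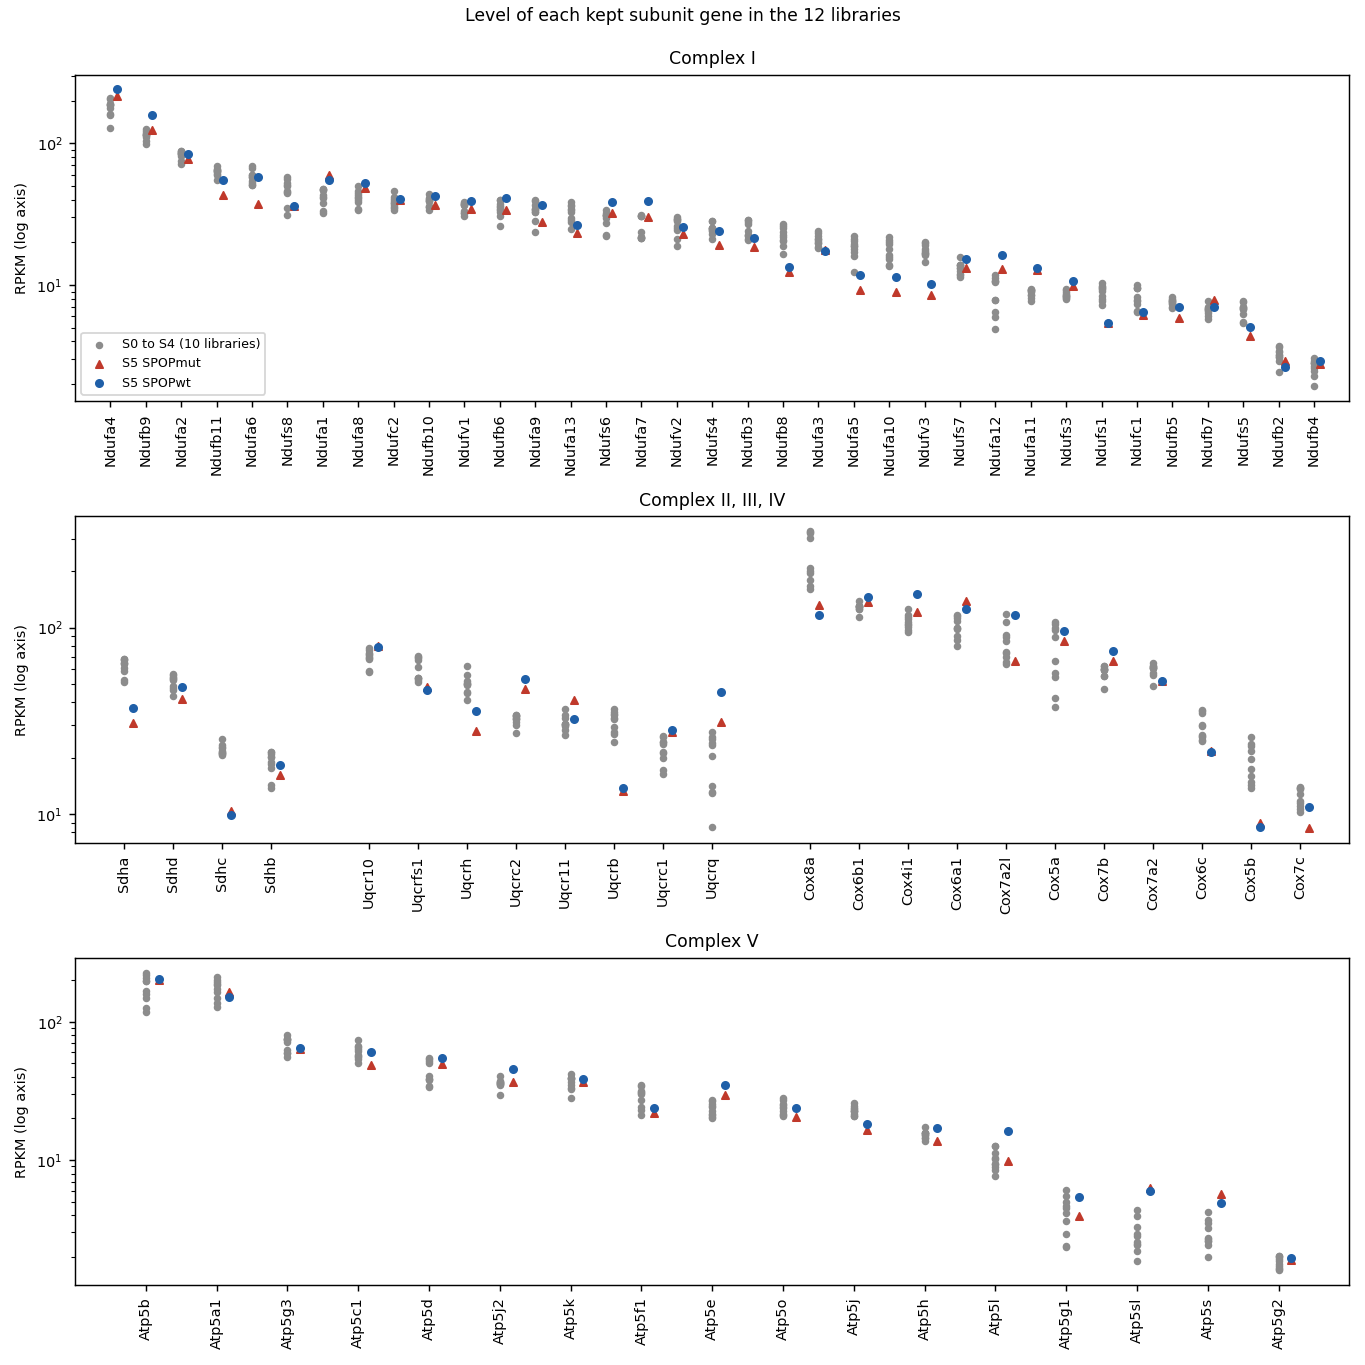
Level of the tested members reported here in RPKM (log axis), ordered within its complex by its mean over 12 libraries; grey points are the 10 libraries of S0 to S4, red triangles S5 SPOPmut and blue circles S5 SPOPwt. Subunits of 1 complex span up to 98.2-fold in mean RPKM (complex V), and Sdhc and Uqcrb show both S5 points clear below the grey ones.

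Although the subunits of a complex are assembled in fixed ratios, their RPKM were not alike. Among the names of complex I the highest mean was that of Ndufa4 (129 to 241 RPKM, median 189) and the lowest that of Ndufb4 (1.93 to 3.04, median 2.78), a ratio of 70.4. Ndufa4 is counted here by its name only. Next below it was Ndufb9, with a mean of 119 RPKM (99.7 to 159, median 115). Complex II ran from Sdha, the flavoprotein that binds succinate (30.9 to 68.1, median 62.2), to Sdhb, its iron-sulfur subunit (13.9 to 21.7, median 18.9). In complex III Uqcr10, a small subunit, was the highest (57.9 to 79.4, median 71.8), and Uqcrq, which contacts cytochrome b, the lowest (8.59 to 45.1, median 23.8). Cox8a led complex IV (117 to 328, median 198) and Cox7c was its lowest tested member (8.45 to 13.9, median 11.6). In complex V the range ran from Atp5b, the catalytic beta subunit (118 to 225, median 197), to Atp5g2, a gene for the membrane c ring (1.61 to 2.03, median 1.88).

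Several of the lowest rows belonged to genes whose messenger sequence recurs elsewhere in the genome as processed pseudogenes. A read of 51 bases inside such a stretch fits both places, and how the authors treated such reads is not stated in the sources used here. Of 82 members found in GENCODE M21, 19 shared at least 5% of their 51-base words with other annotated genes and 43 shared none; a genome sequence was not used here, so these shares are lower bounds. The first 60 coding bases of 3 members are printed because each also stands, letter for letter, in the named copy. They come from the GENCODE transcripts on GRCm38, and all bases are in lower case since every one is shared.
Atp5g2 (copy Gm10175): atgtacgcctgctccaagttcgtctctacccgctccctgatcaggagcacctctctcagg
Cox7c (copy Gm12338): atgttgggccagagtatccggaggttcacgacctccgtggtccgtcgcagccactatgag
Uqcrb (copy Gm2962): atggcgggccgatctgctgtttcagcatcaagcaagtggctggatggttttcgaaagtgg
The longest coding stretch in common was 441 bases for Atp5g2, 192 for Cox7c and 116 for Uqcrb.

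For these members the copy was listed at a higher level than the gene. Gm10175, all of whose words also lie in Atp5g2, stood at 323 to 391 RPKM across S0 to S4 and at 143 and 186 in S5, a difference of -1.07 on the log2(RPKM + 1) scale. The Atp5g2 row itself, at 1.61 to 2.03 RPKM, had a difference of 0.05. Gm12338, likewise wholly contained in Cox7c, stood at 199 to 297 RPKM across S0 to S4 and at 151 and 167 in S5. Uqcrb and its copies moved alike: S5 differed from S0 to S4 by -1.14 for Uqcrb, -1.14 for Gm2962, -1.26 for Gm16089 and -0.97 for Gm5457. Cox5b (-1.01) and Gm11273 (-1.03), annotated as protein coding and sharing 61.2% of its words, also did. Gm10250 (94.0 to 115 RPKM over all libraries) exceeded Atp5h, the d subunit of the ATP synthase stalk (13.7 to 17.2), and BC002163 (35.5 to 54.9) exceeded Ndufs5 (4.39 to 7.74). The level of a member with such a copy is therefore uncertain, and the order of members within a complex is too.

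**Figure D2:**
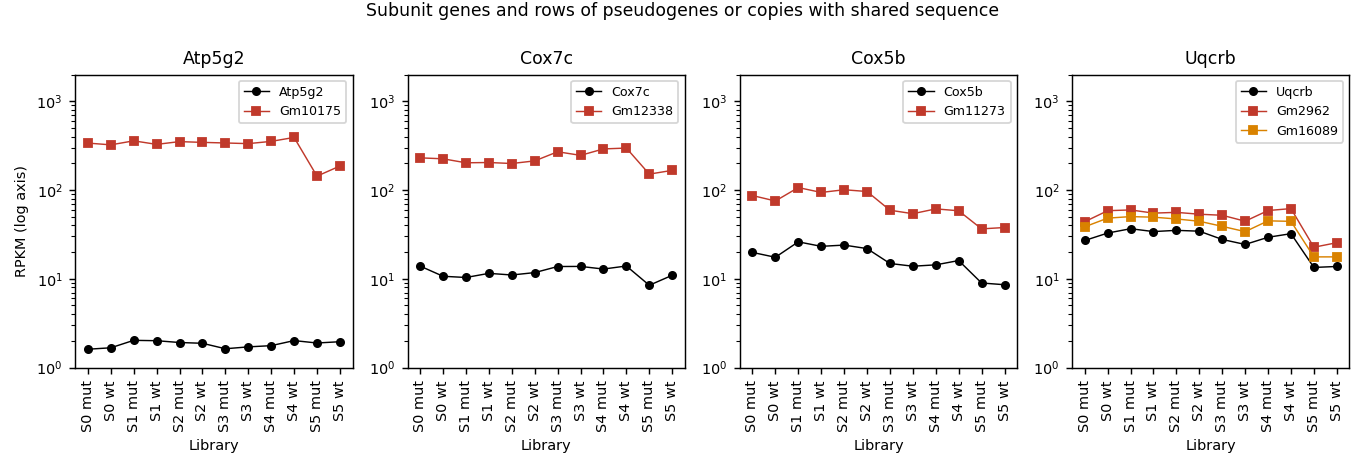
RPKM (log axis) of 4 members and of rows that share their sequence, in each of the 12 libraries. Gm10175 drops in both S5 libraries while the Atp5g2 row stays between 1.61 and 2.03 RPKM; the Uqcrb and Cox5b rows and their copies run in parallel.

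Among the alternative genes of complex IV subunits, 1 form dominated in every library. Cox4i1, Cox6a1, Cox6b1, Cox7b and Cox8a, the broadly expressed forms, each made up at least 97.6% of the RPKM of their pair or trio. Their counterparts Cox4i2, Cox6a2, Cox6b2, Cox7b2, Cox8b and Cox8c, known mainly from muscle, lung or testis, stayed under 1 RPKM except Cox6a2, which reached 1 RPKM in 2 libraries and was highest at 2.20 (S4 SPOPmut). Cox8c was listed at 0 in all 12. Cox7a2 stood at 48.9 to 64.7 RPKM, the muscle form Cox7a1 at 0.48 to 1.54, and Cox7a2l at 63.9 to 118. For the c ring, Atp5g3 took 89.7 to 93.7% of the RPKM of the trio, Atp5g1 3.71 to 7.60% and Atp5g2 2.02 to 2.84%, by their own rows. Copies stood higher than the rows of Atp5g1 and Atp5g2, Gm10175 for Atp5g2 (143 to 391 RPKM) and, for Atp5g1, Gm10039 (57.6 to 148 RPKM, 92.5% of its words in Atp5g1), so which c ring gene leads cannot be told from these rows.

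The members' levels were comparatively steady between libraries. The median SD of log2(RPKM + 1) over the 12 libraries was 0.215 for the 76 members and 0.337 for all 13600 genes tested. Among genes of at least 10 RPKM on average it was 0.217 for 62 members and 0.346 for 5686 genes. The smallest SDs were those of Atp5g2 (0.080), Cox6b1 (0.086) and the complex I subunit Ndufa2 (0.099). The added 1 compresses the low Atp5g2 row. By highest over lowest RPKM, Ndufa2 (1.24), Atp5h (1.26) and Atp5g2 (1.26) were alike. Uqcrq (0.628), Cox5a (0.522) and Cox8a (0.516) varied the most. These 3 also separated 2 sets of pairs: in S1 and S2 against S3 and S4, Cox5a stood at 97.4 to 108 against 37.8 to 57.3 RPKM, Cox8a at 303 to 328 against 162 to 200, and Uqcrq at 23.5 to 27.6 against 8.59 to 14.2. Pair S0 took no single side, with Cox8a at 197 and 210 near or above S3 and S4, Uqcrq at 20.5 and 25.3 near S1 and S2, and Cox5a at 66.2 and 88.8 between. Of all 76 members, 25 were higher without overlap in S1 and S2 (32.9%, against 27.4% of all genes tested) and 13 were lower (17.1%, against 26.6%).

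Between SPOPmut and SPOPwt, no member was called. In limma with pair and genotype fitted, 0 of 76 passed an adjusted p under 0.05 in either direction, and neither did any other gene (0.0% of 13600). At an unadjusted p under 0.05 there were 3 members (3.95%), against 5.6% of all genes. The mean was higher in SPOPmut for 24 members and lower for 52 (68.4%, against 49.8% of all genes). Without pair S5 the number lower was 33 and without S0 and S5 it was 24. It also depended on the scale. With each library rescaled to the same summed RPKM 40 were lower, with quantile normalization 40, and with scaling by the median of ratios 53. A single direction in 6 of 6 pairs was seen for 4 members that were higher (5.26%, against 3.62% of all genes) and for 2 that were lower (2.63%, against 1.68%).

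Uqcrq had the smallest p. It stood at 8.59 to 31.1 RPKM in SPOPmut (median 22.0) and at 13.1 to 45.1 in SPOPwt (median 25.6), groups that overlap widely because the pairs differ. Within pairs SPOPmut was lower in 6 of 6, by -0.29 in S0, -0.13 in S1, -0.18 in S2, -0.55 in S3, -0.11 in S4 and -0.53 in S5 on the log2(RPKM + 1) scale. The mean difference was -0.30 (SE 0.083, 95% confidence interval -0.49 to -0.11), with a limma adjusted p of 0.871. Flipping the signs of the 6 pair differences in an exact two-sided test gave p = 0.03125, the smallest p of this design. Every gene with a single direction in 6 of 6 pairs gets this value, so it adds nothing to that count. The test and the count take the pairs as independent, which S1 and S2, the most alike in both genotypes, may not be.

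Ndufa12, an accessory subunit of complex I, was the other lower member at an unadjusted p under 0.05. It stood at 4.91 to 13.1 RPKM in SPOPmut (median 9.18) and at 5.94 to 16.2 in SPOPwt (median 10.7). Its mean difference was -0.19 (SE 0.078, limma adjusted p = 0.886), lower in 5 of 6 pairs and 0.07 higher in S1. Ndufc1, also of complex I, was lower in 6 of 6 pairs, by as little as -0.00058 in S1 and as much as -0.22 in S0 (mean -0.10, SE 0.058, adjusted p = 0.887 in limma). Ndufv1, which carries the NADH site, had a mean of -0.09 and was lower in 5 of 6 pairs.

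Ndufa1, a small membrane subunit encoded on the X chromosome, was the higher member of smallest p. It stood at 37.9 to 59.6 RPKM in SPOPmut (median 47.4) and at 32.1 to 54.8 in SPOPwt (median 42.7). The difference was 0.16 (SE 0.068, 95% confidence interval 0.0062 to 0.32, limma adjusted p = 0.886), positive in 6 of 6 pairs, from 0.02 in S4 to 0.35 in S1. Ndufc2 followed with 0.16 (5 of 6 pairs), then Atp5s with 0.14, Ndufa3 with 0.09 and Ndufb7 with 0.09, the last 3 in 6 of 6 pairs. Every one of these had an adjusted p of 0.887 in limma.

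By complex, the median difference was -0.02 for complex I, -0.08 for complex II, -0.03 for complex III, 0.03 for complex IV and -0.01 for complex V, beside 0.00055 for all genes. All 4 subunits of complex II had a lower mean in SPOPmut, with Sdha at -0.09 (SE 0.072). Pair by pair, the median over members was -0.03 in S0, 0.05 in S1, 0.04 in S2, 0.08 in S3, -0.06 in S4 and -0.16 in S5. Over all genes tested it was -0.0097, 0.048, 0.049, 0.0050, -0.030 and -0.00057 in the same order. In S1 and S2 the members thus lay near all genes. Their medians there were -0.028 and -0.0094 with each library rescaled to the same summed RPKM. In S5, 61 of 76 members were lower in SPOPmut (80.3%, against 50.1% of all genes in that pair), 32 of them among the 36 of complex I. That count depends on the scale: with each library rescaled to the same summed RPKM the S5 median was -0.04 with 43 lower, while the median of all genes moved to 0.11 and 4666 of 13600 genes were lower. With quantile normalization 50 members were lower (median -0.11) and with scaling by the median of ratios 57 were (median -0.14). Relative to all genes, the members thus lay lower in S5 SPOPmut under each of these scalings. Pair S3 went the other way under each of them. In the same order from the main scale, its member medians were 0.079, 0.055, 0.055 and 0.073, with 23, 25, 21 and 23 members lower. The medians of all genes there were 0.0050, -0.018, 0.0062 and -0.00012.

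**Figure D3:**
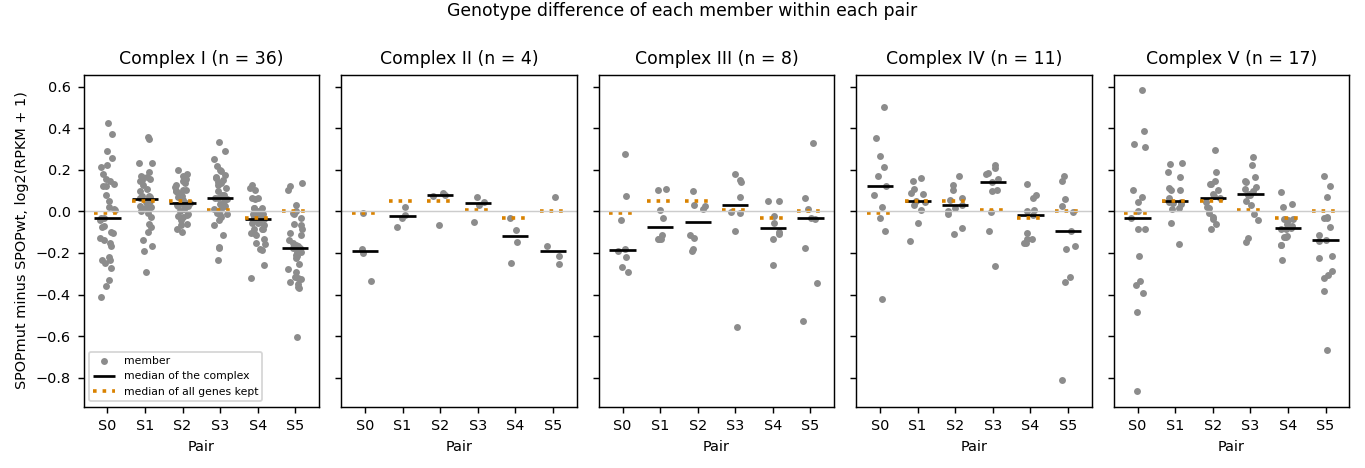
Difference SPOPmut minus SPOPwt on the log2(RPKM + 1) scale for each tested member (grey points) in each pair, 1 panel per complex; black lines are the medians of the complex and dotted orange lines those of all genes tested. The black lines lie on both sides of 0 in different pairs, and in S5 that of complex I lies at -0.18.

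In S5 against S0 to S4 the members did not move as a block. S5 is 1 pair, singled out with its values known, so the difference carries no test; fewer cells of a type and less RNA per cell cannot be told apart in such bulk samples. Both S5 libraries lay above all other 10 for 14 members (18.4%, against 21.4% of all genes tested) and below them for 18 (23.7%, against 28.1%), and 44 overlapped. A log2 difference of at least 1 in size was found for 4 members (5.26%, against 21.9%), and the median size was 0.305 (all genes 0.474). The median was -0.52 for complex II, with Sdhc and Sdha below and Sdhd and Sdhb overlapping, and it was 0.22 for complex III, with 4 members above and 3 below. For complexes I (-0.07), IV (0.09) and V (0.05) it was near 0 and changed sign with the scaling or with the libraries used.

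Sdhc, a membrane anchor of complex II, was steady in the other pairs and low in S5. It stood at 20.7 to 25.4 RPKM across S0 to S4 (median 21.7) and at 10.4 and 9.86 in S5 (-1.06). Uqcrb, the ubiquinone-binding protein of complex III, stood at 24.4 to 36.6 RPKM across S0 to S4 (median 32.5) and at 13.4 and 13.8 in S5 (-1.14). Cox5b, a zinc-binding subunit of complex IV, stood at 13.9 to 26.1 RPKM (median 18.6) and at 8.96 and 8.57 in S5 (-1.01). Cox8a ranged from 162 to 328 RPKM (median 205) and stood at 132 and 117 in S5 (-0.89). In Sdhc, Uqcrb, Cox5b and Cox8a both S5 libraries lay below every other library.

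On the other side, Uqcrq stood at 8.59 to 27.6 RPKM across S0 to S4 (median 22.0) and at 31.1 and 45.1 in S5 (0.98). Uqcrc2, a core protein of complex III, was much steadier across S0 to S4, at 27.1 to 34.2 RPKM (median 32.7), and stood at 46.9 and 53.1 in S5 (0.62). Ndufa12 stood at 4.91 to 11.8 RPKM (median 9.21) and at 13.1 and 16.2 (0.71). The non-structural Atp5sl (1.85 to 4.38 RPKM, then 6.29 and 5.96) and Atp5s (2.01 to 4.19, then 5.65 and 4.91) differed by 0.90 and 0.68. Within complex III, then, Uqcrq and Uqcrc2 lay above and Uqcrb below the other pairs.

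Many members' S5 differences had the sign of the median of their chromosome. This was looked at after the values were seen. Over the 12889 tested genes placed on chromosomes 1 to 19 and X, the chromosome medians of S5 minus S0 to S4, computed without the members, ran from -0.45 (chromosome 1) to 0.32 (chromosome 5). For single pairs among S0 to S4 against the rest of them, they stayed between -0.15 and 0.18. On chromosome 1, Sdhc, Cox5b, Ndufa10, Ndufs1 and Ndufb3 were lower in S5, the first 4 without overlap, where 45.7% of the other genes of that chromosome lay below. On chromosome 13, with a median of -0.31, 5 of 6 members were lower (Uqcrb, Sdha, Uqcrfs1, Cox7c and Ndufs4) and Ndufs6 was higher. On chromosome 10, with 0.26, all 5 members were higher (Ndufs7, Atp5b, Uqcr11, Atp5d and Ndufa12). The 3 members on chromosome 5 (Atp5k, Atp5j2 and Cox6a1) were higher too. Other chromosomes went the other way. On chromosome 11 (median -0.14) Atp5g1, Uqcr10 and Uqcrq were higher, on X (-0.12) Cox7b and Ndufa1 were higher and Ndufb11 lower, and on chromosome 18 (0.12) both members, Atp5a1 and Ndufa2, were lower. Across 75 members, the difference and the median of its chromosome had a Pearson r of 0.59 and a Spearman rho of 0.56, given as a description, since members of 1 chromosome share the same median. The median of chromosome 1 was -0.41 among SPOPmut and -0.46 among SPOPwt libraries. What part the chromosome has in the members' differences was not tested.

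**Figure D4:**
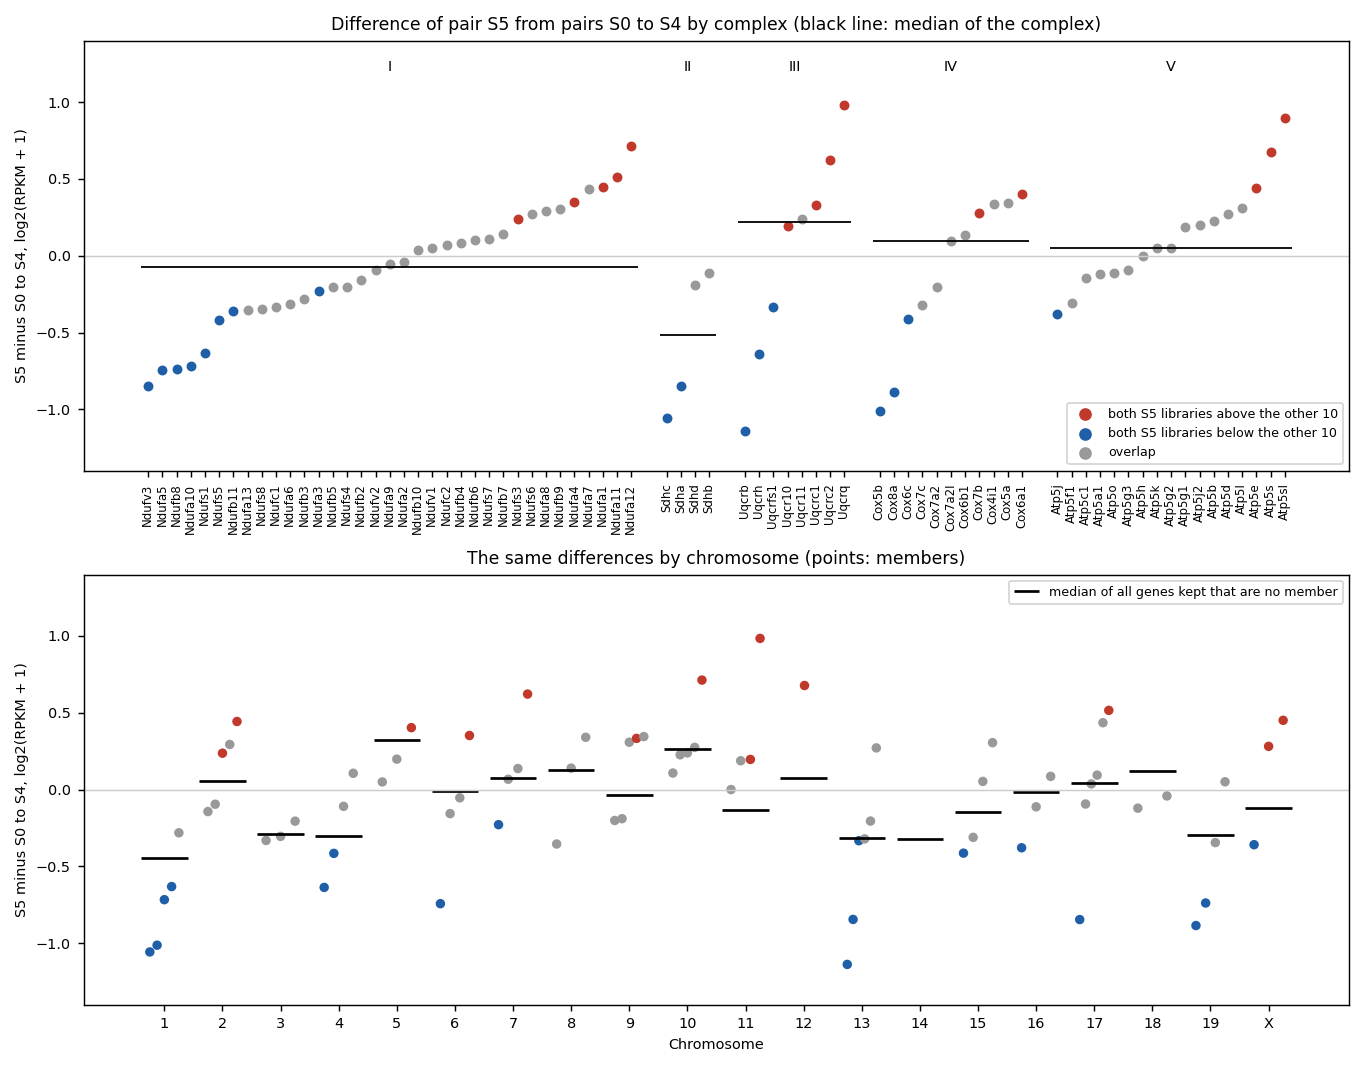
Difference of S5 (mean of 2 libraries) from S0 to S4 (mean of 10) on the log2(RPKM + 1) scale for the tested members reported here, by complex (upper panel) and by chromosome (lower panel); red and blue points are members whose S5 libraries lie above or below all others. In the upper panel each complex but II has points on both sides of 0, and in the lower panel the 5 members shown on chromosome 1 all lie below 0, as does the median of the other genes there.

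None of the 13 subunit genes of mitochondrial DNA had a row under its name. Letters of 4 of them were found in rows of nuclear pseudogenes on chromosome 1. All words of Gm28661 lay in mt-Co2, all of Gm28437 in mt-Co3 and all of Gm10925 in mt-Atp6. Of Gm29216, 97.1% lay in mt-Co1. Gm28661 and Gm29216 also shared 34.4% and 16.7% of their words with Gm13341 and Gm13340 on chromosome 2. Only the 4 rows of chromosome 1 were searched, so letters of the other subunit genes were not looked for. The genes mt-Co1 to mt-Co3 encode the core of complex IV and mt-Atp6 a subunit of the proton channel of the ATP synthase. At least 99.5% of the words of mt-Co2, mt-Co3 and mt-Atp6 lie in these rows, so reads of those genes fit the pseudogene too, whereas Gm29216 holds 28.7% of the words of mt-Co1. Together these 4 rows took 4.51 to 7.59% of the summed RPKM across S0 to S4, and 11.6% and 11.3% in S5. Gm10925 stood at 4088 to 6628 RPKM across S0 to S4 (median 5844) and at 11970 and 11940 in S5 (1.07), and the other 3 rows were higher by 0.71 to 0.79. All 4 rows lay above S0 to S4 without overlap in S5, as did 21.4% of all genes tested. They hold letters of the same mitochondrial DNA and are not taken as separate observations. Between genotypes they were not called, at limma adjusted p-values from 0.887 for Gm10925 and Gm29216 to 1.0 for Gm28437.

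**Figure D5:**
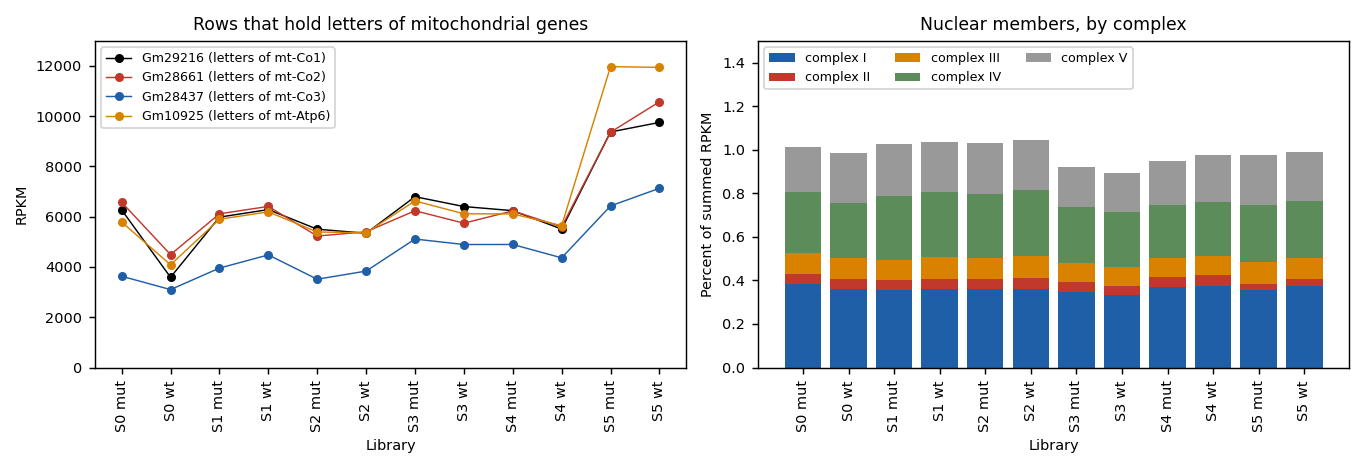
Left, RPKM of the 4 pseudogene rows that hold letters of mitochondrial genes, per library; right, percent of the summed RPKM taken by the nuclear members of each complex (stacked bars from 0). The left lines rise in both S5 libraries, to 11970 RPKM for Gm10925, while the height of the right bars stays between 0.893 and 1.05%.

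The promoters of the members were searched for 3 short motifs of factors known to act on such genes, since a shared sequence feature was not used to choose them. NRF1 (core GCATGCGC) and GABPA (CCGGAAGT) are regulators of nuclear mitochondrial genes, and YY1 (core AAGATGGC) is a further one. Windows around the RefSeq gene start (GRCm38.p6) were read on both strands, and 69 of 83 members had one. The NRF1 core was in 14.5% of these members and 3.05% of all genes with a window, the YY1 core in 15.9% and 3.19%, and the GABPA motif in 7.2% and 4.31%. Beside the tested genes alone these contrasts were smaller or reversed, at 6.37% for the NRF1 core, 5.69% for the YY1 core and 10.13% for the GABPA motif. Of the 13600 tested genes 8794 had a window, and that comparison covers only these. As the contrasts depend on the genes they are set against, the motifs are not called particular to the members. A match describes letters and not a bound site. Of the 10 members with the NRF1 core, 5 are shown by the 80 bases before the RefSeq start, 5′ to 3′ on the gene strand. GENCODE M21 begins some of these genes elsewhere. There the cores of Atp5g2, Ndufa8 and Sdhb lie inside the gene, and Atp5k begins within its core. Capitals mark the core, lengthened where matches on both strands overlap.
Atp5g2, chr15:102671048-102671127, minus strand: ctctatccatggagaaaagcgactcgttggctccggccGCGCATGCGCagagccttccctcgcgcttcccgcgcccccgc
Atp5k, chr5:108434400-108434479, minus strand: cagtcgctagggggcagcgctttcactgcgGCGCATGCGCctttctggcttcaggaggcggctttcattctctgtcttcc
Ndufa11, chr17:56717682-56717761, plus strand: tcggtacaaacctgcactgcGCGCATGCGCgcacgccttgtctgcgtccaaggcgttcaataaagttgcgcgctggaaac
Ndufa8, chr2:36049339-36049418, minus strand: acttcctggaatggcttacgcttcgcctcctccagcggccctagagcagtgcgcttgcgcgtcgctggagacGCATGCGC
Sdhb, chr4:140961191-140961270, plus strand: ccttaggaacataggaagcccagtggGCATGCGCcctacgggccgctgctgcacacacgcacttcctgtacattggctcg
The lengthened form was shared by Atp5g2, Atp5k and Ndufa11 and also occurred in the windows of Cox6a1 and Uqcrc1, 5 of the 10. Atp5k stood at 28.2 to 41.9 RPKM, Ndufa11 at 7.71 to 13.2, Cox6a1 at up to 139 and Uqcrc1 at 16.4 to 28.2. By complex the YY1 core was found in 7 of 32 windows of complex I and 4 of 16 of complex V, and in none of 21 others.

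Genes around the pathway were counted from lists. No gene of any list was called between genotypes in limma. Of 15 complex I assembly factors tested, 11 had a lower mean in SPOPmut, and Ndufaf6 had the smallest p, at -0.27 (SE 0.072, adjusted p = 0.801 in limma), lower in 6 of 6 pairs. Among 22 assembly factors of complex IV, 12 were lower, with the heme A synthase Cox15 at -0.17 in 6 of 6 pairs. Of 12 biogenesis regulators, 8 were lower, with Tfam, the packaging factor of mitochondrial DNA, at -0.16 (SE 0.056, adjusted p = 0.881 in limma), again in 6 of 6 pairs. The coactivators Ppargc1a and Ppargc1b were below the filter. Of the large subunit of the mitochondrial ribosome 20 of 21 genes were lower (median -0.08), and of 16 import and membrane genes 15 were (median -0.13), beside 49.8% of all genes. Of the 17 genes of the tricarboxylic acid cycle, 11 were lower (median -0.07), and of 19 glycolysis genes 14 (median -0.12). These list counts hold for the main scale and all pairs, and were not recomputed under other scalings or without pairs. The like count of members, 52, fell to 24 without pairs S0 and S5.

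Enzymes of glycolysis were mostly lower in S5. Of the 19 glycolysis genes 12 lay below S0 to S4 without overlap (all genes 28.1%) and 2 above (all genes 21.4%), with a median of -1.01, beside -0.02 for the members and -0.07 for all genes. Eno1, an enolase, stood at 44.5 to 88.7 RPKM across S0 to S4 and at 13.5 and 12.7 in S5 (-2.26), and the mutase Pgam1 at 57.7 to 139 and at 25.9 and 26.2 (-1.81). In the tricarboxylic acid cycle 5 of 17 genes lay above and 4 below, near the 21.4% and 28.1% of all genes, with Idh2 at -1.48 and Idh3a at 0.94. The receptor Esrra stood at 7.31 to 13.1 RPKM and at 21.1 and 20.8 in S5 (1.11), and Hspa9, the chaperone that drives import, at 66.9 to 164 and at 256 and 338 (1.30). The carrier of ADP and ATP Slc25a4 went the other way, at 100.2 to 159 and at 53.3 and 59.8 (-1.20).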

How the data were processed

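Each of the 12 libraries was 1 file of RPKM per gene name, made and deposited by the authors, per the file names. Per the labels' protocols, the kit was TruSeq RNA v2, a kit without strand information, and reads were paired ends of 51 bases. STAR 2.4.0j is named in the submitters' processing notes, with mm10 and GRCm38 as builds. Which counter and annotation were used, and how reads with several matches were handled, is not given in the sources used here. Of low values, 37.7 to 40.5% lay within 0.05 of a whole read, where 10% would by chance, so whole reads were not recovered and no count test was run. Libraries of 1 group were compared for duplicates by the median chi-square of approximate reads, and none were merged. S1 and S2 were the closest in both genotypes, at 2.168 for SPOPwt and 3.675 for SPOPmut. The next lowest value was 12.908, for S0 and S2 SPOPwt. S1 and S2 may therefore be near repeats, and whether they are independent was not tested. The limma p-values, the counts over pairs and the sign-flipping test treat S1 and S2 as separate pairs, so these may overstate the evidence.

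Values were transformed to log2(RPKM + 1), which understates differences of low genes. limma 3.58.1 in R 4.3.3 fitted pair and genotype over 13600 genes with trended, robust variance, and p-values are two-sided and Benjamini-Hochberg adjusted over all of them. Pairing was taken from the protocols, which speak of pairs. Deviations from the group means were shared within S1 to S5 (r = 0.753 to 0.954) and hardly in S0 (r = 0.06). The blocked fit is the one reported, on the sharing within S1 to S5. By the median chi-square, S0 SPOPmut was nearest S4 SPOPmut (13.428) and S0 SPOPwt nearest S2 SPOPwt (12.908). The S0 difference may therefore hold more than genotype. Without S0, no member was called and 46 had a lower mean in SPOPmut. Members and lists were chosen with earlier results of these data known. Members given in full were the highest and lowest of each complex, the paralog sets, the 4 of smallest p in each direction and the 5 of largest S5 difference in each direction; for each list, the gene of smallest p and the 2 of largest S5 difference qualified. A gene that this rule names and a marker are not reported here. Positions and 51-base words came from GENCODE M21, promoters from RefSeq (GRCm38.p6). Tables used Python 3.11.15 with numpy 2.4.6 and pandas 2.3.3, exact tests scipy 1.17.1 and plots matplotlib 3.10.9. Alternatives were another pseudocount, no filter, 3 other scalings, no block, omitted pairs and single genotypes.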

Additional observations from a re-analysis of the deposited data

Results flagged for a closer look

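In 66 groups of 6 values from 22 members, 7 held a library or pair whose gap to its nearest neighbour, over the range of the group, exceeded 0.625; chance gives about 1 in 20 groups. For Sdhc and Uqcrc2 the library was S5 in both genotypes; both were among the members screened because of their S5 difference, so the chance rate does not apply to them. Sdhc stood at 10.4 RPKM in S5 SPOPmut (next 20.7) and at 9.86 RPKM in S5 SPOPwt (next 21.2). Uqcrc2 was the high one, at 46.9 RPKM in S5 SPOPmut (next 34.2) and at 53.1 RPKM in S5 SPOPwt (next 33.8). The other 3 concerned other pairs. Ndufv1 in S3 SPOPwt, at 32.3 RPKM, lay under the next library at 36.6. The genotype difference of Cox5b was -0.15 in S4, with the next at 0.06, and that of Atp5sl was 0.585 in S0, with the next at 0.07.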

How the results depend on the processing

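Of 277 recomputed values, 253 stayed close to the main one. Counts had to stay similar in size, and medians to shift by less than their SD between pairs or libraries, whatever their sign. Single genes had to keep their direction and side of the threshold. All 112 values of the 8 members given in full between genotypes did, with a smallest adjusted p in limma of 0.462. Medians near 0 could change sign. The median genotype difference (-0.017) was 0.016 without S5 and 0.030 without pairs S0 and S5. The median S5 difference of all members (-0.021) was 0.059 with scaling by the median of ratios. No member was called in any alternative. The number at an unadjusted p under 0.05 (3) was 5 with no filter, 0 without the replicate block that uses the pairing, 6 without pairs S0 and S5, and 1 to 4 with single pairs left out (1 without S3). The number lower in SPOPmut (52) was 33 to 56 with single pairs left out (33 without S5) and 24 without pairs S0 and S5. It was 40 with each library rescaled to the same summed RPKM and 40 with quantile normalization. The block changed no other call. For S5 against S0 to S4, members above (14) numbered 28 with quantile normalization and 28 with SPOPwt libraries only, and those below (18) numbered 34 with SPOPmut libraries only. With quantile normalization the medians were 0.054 for complex I, -0.37 for II, 0.40 for III, 0.28 for IV, 0.31 for V and 0.13 for all members. With SPOPwt libraries only they were 0.034 for I, 0.073 for III, 0.22 for IV and 0.20 for V, and with SPOPmut libraries only -0.17 for I and -0.21 for IV. Scaling by the median of ratios gave 0.18 for IV. Leaving out members with shared sequence, an alternative chosen after seeing the data that keeps 57, gave 0.20 for V. The mean share of the summed RPKM (0.986%) was 1.11% without the 10 most abundant genes. The cause of these shifts was not tested, beyond the smaller sets of genes or samples some of them use.

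At about 113 to 164 reads per RPKM in a 2 kb transcript, depth limits mainly the 7 members under the filter. Reads with several matches limit the levels of 19 members, S5 is 1 pair, and RPKM is relative to the other genes.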
